A study of Mus musculus with 3 samples.

Results

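The circadian clock genes of the Treg H3K36me3 profile were Arntl, Clock, Per1, Per2, Per3, Cry1, Cry2, Nr1d1, Nr1d2 and Dbp. They were listed by name, and a peak was given to a gene when its midpoint lay in the GENCODE M21 gene body (mouse build mm10). All 10 genes had at least 1 peak, and together they held 101 of the 120910 peaks in the table; 10037 protein-coding genes had a peak. H3K36me3 was profiled by ChIP-seq in regulatory T (Treg) cells sorted as CD3+CD4+Foxp3-YFP+ from spleen and large intestine (LI) of C57BL/6 Foxp3-YFP mice at steady state, with 1 library per tissue. Both groups carried the reporter in which the Foxp3 locus drives a Cre-YFP fusion, so that YFP marks Foxp3-expressing cells, and no gene was deleted in them. The cells of a library came from a pool of animals, 7 of each sex, which were young adults by the study's general rule and were kept in a light-dark cycle. The hour of collection is not given in the sources used here. The remaining library, input chromatin of splenic Treg cells, was not analysed here. With a single library on each side, none of the differences reported here could be checked against replicates.

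The mammalian clock is a feedback loop of transcription. CLOCK and BMAL1, the product of Arntl, bind as a pair to E-box sequences and activate the Per and Cry genes, whose proteins return to the nucleus and inhibit the pair. The same pair activates Nr1d1 and Nr1d2, which encode the repressors REV-ERBα and REV-ERBβ, and Dbp, which encodes an activator of D-box genes; the REV-ERBs repress Arntl, and the ROR receptors compete with them at the same sites. Transcripts of many of these genes follow the hour of the day in most tissues, immune cells included. H3K36me3 is laid down by Setd2 as RNA polymerase II elongates and marks transcribed gene bodies, typically towards their ends.

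The deposited value of a peak is the mean coverage over the peak in RPKM, that is, reads normalised to length and to sequencing depth. Values were summed over the peaks of a gene, the LI column was brought to the spleen total over all peaks, and the ratio was expressed as log2 of LI over spleen with a pseudocount of 0.5 RPKM, so that values above 0 are higher in LI. A sum of this kind grows with the number of peaks of a gene and is not a count of its reads. Ratios of low genes are understated by the pseudocount. The spacing of the values gave an inferred depth of 29600000 mapped reads in spleen and 38100000 in LI. The interval beside each ratio is an approximate 95% interval for counting error only, with each read taken to cover 200 bp and reads treated as independent molecules. A coding gene was compared when spleen and LI together gave it 20 RPKM or more. Over the 9456 such genes, the median ratio was 0.00 and the middle of the distribution ran from -0.20 to 0.23 (quartiles). All 10 clock genes passed this minimum.

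All 7 Treg markers examined had peaks, which summed to 1810 RPKM in spleen and 1536 RPKM in LI. Most of this total came from Ikzf2, whose 115 peaks gave 1205 RPKM in spleen and 851 RPKM in LI. Foxp3 carried 133 RPKM in spleen and 156 RPKM in LI. The markers ran in both directions: intervals lay above 0 for Ctla4 (0.59) and Tnfrsf18 (0.80) and below 0 for Ikzf2 (-0.55) and Cd3e (-0.41). Those of Foxp3, Il2ra and Cd4 held 0. Of 6 intestinal epithelium markers 2 had peaks, Epcam (0.84, interval 0.20 to 1.49) and Vil1 (1.31, interval -0.20 to 2.82). Their summed level was 29.9 RPKM in spleen and 59.8 RPKM in LI. Krt8, Krt20, Cdh1 and Lgr5 had no peak. Of 5 B cell markers 2 had peaks (51.3 RPKM in spleen and 39.7 RPKM in LI), with no peak in Ms4a1 or Blk. Their ratios were -0.70 (interval -1.35 to -0.05) and 1.15 (interval -0.84 to 3.13). Of 6 myeloid markers 2 had peaks (29.7 RPKM in spleen and 31.3 RPKM in LI). The part of such cells in the ratios below was not tested, and a change in the share of a Treg subset and a change of the mark per cell cannot be told apart in sorted bulk cells. Across all peaks the ratio also moved with base composition, from a median of -0.68 in the lowest of 50 bins of GC content to 0.50 in the highest. Its part was examined by dividing out this trend, and the corrected value is given where it matters.

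Over the clock genes the median ratio was 0.32. The signal was higher in LI in 7 genes and higher in spleen in Per2, Cry2 and Dbp; over all coding genes 50.7% were higher in LI. The interval lay above 0 for 6 genes, namely Arntl, Clock, Per1, Per3, Nr1d1 and Nr1d2, against 17.5% of coding genes, and below 0 for Cry2, against 15.0%. After correction for GC content the intervals of Per1 and Per3 held 0, while those of Arntl, Clock, Nr1d1 and Nr1d2 stayed above it. More than 2-fold higher in LI were Nr1d1 and Per3 (3.21% of coding genes), and more than 2-fold higher in spleen was Dbp (1.81%). Per3 and Dbp rested on few reads, and in 7 genes with at least 1 kb of peaks the median was 0.42 and 6 were higher in LI.

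**Figure D1:**
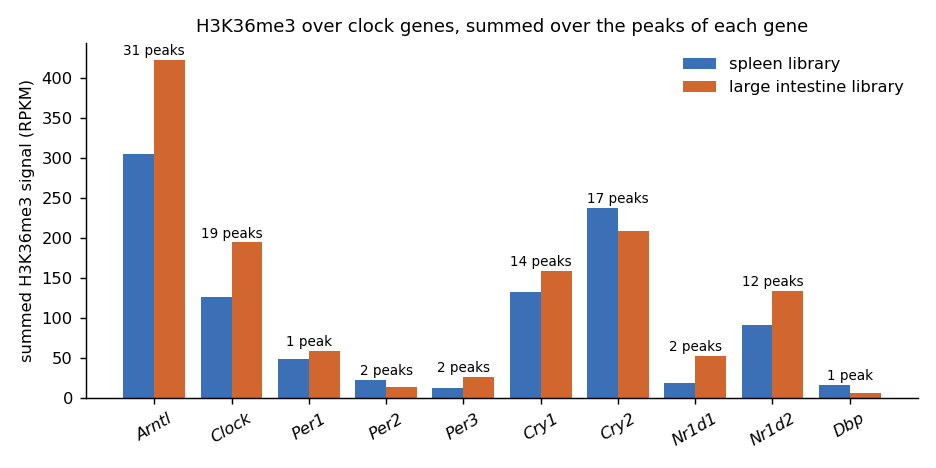
Summed H3K36me3 signal (RPKM, as deposited) over the peaks of each clock gene in the spleen library (blue) and the large intestine library (orange), with the number of peaks above the bars; each bar is 1 library, so there are no error bars. Arntl has the highest sum, from 306 RPKM in spleen to 423 RPKM in LI. Per2, Per3 and Dbp are below 30 RPKM in both libraries. The sum grows with the number of peaks: Arntl has 31 peaks with about 1179 reads in spleen and 2080 in LI. Per1 has 1 peak with about 1393 reads in spleen and 2162 in LI.

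**Figure D2:**
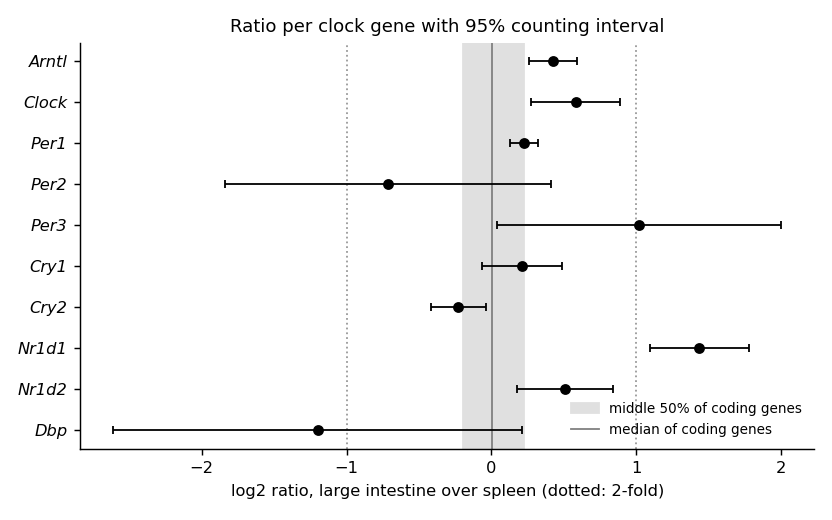
Log2 ratio of LI over spleen for each clock gene (points) with its approximate 95% counting interval (bars); the grey band is the quartile range of 9456 coding genes, from -0.20 to 0.23, and dotted lines mark 2-fold. Nr1d1 stands at 1.43 with an interval wholly beyond 2-fold, and the intervals of Per2, Cry1 and Dbp hold 0.

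Levels per length differed widely among the members. Peaks were assigned by midpoint and spread over the whole gene body, with bases outside peaks counted as without signal. The level was then highest in Per1, with 34.9 RPKM in spleen and 42.1 RPKM in LI. Cry2 followed in spleen with 9.55 RPKM (8.95 RPKM in LI) and Nr1d1 with 8.58 RPKM, but in LI Nr1d1 stood second with 23.1 RPKM. Arntl had 4.09 RPKM in spleen and 5.60 RPKM in LI. Cry1, Nr1d2 and Clock lay between 0.768 and 1.57 RPKM in spleen and between 1.12 and 2.27 RPKM in LI. Dbp, Per2 and Per3 were below 1 RPKM in both libraries. The place of Dbp depends on that assignment: with every overlapping peak counted by its bases inside the body, an alternative chosen after seeing the data, Dbp had 12.2 RPKM in spleen and 13.04 RPKM in LI, above Cry2 in both libraries, while the levels of Per2 and Per3 were the same. With 1 library per tissue no spread is at hand to separate neighbours in this order.

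The sequences below show what the low and the changed signals rest on: the centre of the Nr1d1 peak with the largest ratio among its peaks, both peaks of Per2, the only peak of Dbp, and the part of the Per1 promoter that lay in a peak. Peak sequences are read from GRCm38 (mm10) on the strand of the gene, and CG dinucleotides are in capitals. The Nr1d1 stretch covers the central 300 bases of a 607-bp peak in the first intron (chr11:98772650-98772949, minus strand, GC 48.7%, 4 CG). The Per2 peaks are intronic (chr1:91449534-91449764, 7 CG, and chr1:91419746-91419945, 3 CG, minus strand). The Dbp peak lies in an annotated exon without coding or UTR annotation (chr7:45707331-45707558, plus strand, GC 57.0%, 7 CG).
Nr1d1 intronic peak, centre: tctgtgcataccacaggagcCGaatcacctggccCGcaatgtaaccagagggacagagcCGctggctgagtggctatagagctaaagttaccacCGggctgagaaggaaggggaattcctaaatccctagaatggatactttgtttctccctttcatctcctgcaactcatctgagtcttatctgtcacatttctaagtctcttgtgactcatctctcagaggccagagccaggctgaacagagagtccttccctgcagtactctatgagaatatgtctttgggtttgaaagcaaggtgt
Per2 peak nearer the start: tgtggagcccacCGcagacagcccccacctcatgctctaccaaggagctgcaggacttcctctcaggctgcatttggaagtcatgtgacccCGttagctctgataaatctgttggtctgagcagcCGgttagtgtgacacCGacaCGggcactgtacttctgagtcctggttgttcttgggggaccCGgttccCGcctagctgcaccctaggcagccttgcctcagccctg
Per2 peak nearer the end: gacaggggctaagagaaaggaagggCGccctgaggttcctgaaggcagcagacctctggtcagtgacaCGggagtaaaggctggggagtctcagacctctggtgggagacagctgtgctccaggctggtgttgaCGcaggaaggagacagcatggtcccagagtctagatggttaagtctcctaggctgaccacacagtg
Dbp peak: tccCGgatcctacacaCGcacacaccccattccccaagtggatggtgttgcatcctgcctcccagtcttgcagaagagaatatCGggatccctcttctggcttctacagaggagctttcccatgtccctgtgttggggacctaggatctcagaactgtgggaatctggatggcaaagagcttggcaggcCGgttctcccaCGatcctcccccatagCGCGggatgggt

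Promoter sequences came from RefSeq (GRCm38.p6), which gave 13 start sites for 9 of the 10 genes; Per2 had no entry. In the 250 bases before each start, on both strands, the E-box CACGTG was found in Per1 and Cry1, against 6.02% of 32851 promoters, and the D-box TTATGTAA in Per3, against 0.819%. The letters AGGTCA, which the ROR and REV-ERB receptors bind next to an A/T-rich stretch, occurred in Per1, Clock and Nr1d2, against 14.0%, and TGACGT, the core of the element bound by CREB, in Per1, against 6.47%. A match describes these letters only. Of the 13 windows 1 overlapped an H3K36me3 peak, that of the internal Per1 start (chr11:69099902-69100151, plus strand); TGACGT is in capitals in it.
Per1 internal promoter: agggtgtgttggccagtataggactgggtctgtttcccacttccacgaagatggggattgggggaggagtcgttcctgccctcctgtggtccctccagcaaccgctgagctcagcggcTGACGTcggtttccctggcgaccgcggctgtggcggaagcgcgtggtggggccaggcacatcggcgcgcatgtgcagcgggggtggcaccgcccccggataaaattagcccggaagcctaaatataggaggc

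Both genes of the activator pair had more H3K36me3 in LI than in spleen. Arntl (ENSMUSG00000055116.8, chr7:113207465-113314126, plus strand) held 31 peaks that covered 32.1% of its body. They summed to 306 RPKM in spleen and 423 RPKM in LI, a ratio of 0.42 (interval 0.26 to 0.59) that ranked 1314 of 9456 coding genes from the LI end. The difference ran along the gene: 25 peaks were higher in LI and 6 in spleen, and all 8 peaks of 1 kb or longer were higher in LI, the smallest of these differences being 0.00 at a peak of 1122 bp. The longest peak, of 7643 bp and in the last part of the gene, carried 16.9 RPKM in spleen and 21.3 RPKM in LI (0.28, interval 0.09 to 0.46). A second long peak of 6571 bp had 13.8 and 18.7 RPKM (0.39, interval 0.17 to 0.60). A 2335-bp peak between them differed most among the peaks over 1 kb, with 13.1 RPKM in spleen and 23.8 RPKM in LI (0.79, interval 0.43 to 1.15). The GC-corrected ratio of the gene was 0.36. Past the end of Arntl, the neighbouring gene Btbd10, on the opposite strand, had a ratio of -0.24 (interval -1.23 to 0.75).

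Clock (ENSMUSG00000029238.11, chr5:76209868-76304792, minus strand) encodes the partner of BMAL1. Its signal was weaker per length, with 19 peaks over 9.79% of the body and none before 32.2 kb from the start. The sum was 126 RPKM in spleen and 195 RPKM in LI, a ratio of 0.58 (interval 0.27 to 0.89; rank 861). Of its peaks 16 were higher in LI, 7 of them by more than 2-fold, and 3 were higher in spleen, none of these by more than 2-fold. Short peaks with few reads made up much of this count; among the 3 peaks of 1 kb or longer, all higher in LI, the ratio ran from 0.12 at 1716 bp to 1.10 at 1258 bp, where spleen had 5.08 RPKM and LI 11.9 RPKM. The ratios of Arntl and Clock differed by -0.16 (Arntl minus Clock, interval -0.51 to 0.19). Tmem165, whose end lies 0.62 kb from that of Clock on the opposite strand, was even, with 118 RPKM in spleen and 121 RPKM in LI (-0.02, interval -0.32 to 0.29).

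**Figure D3:**
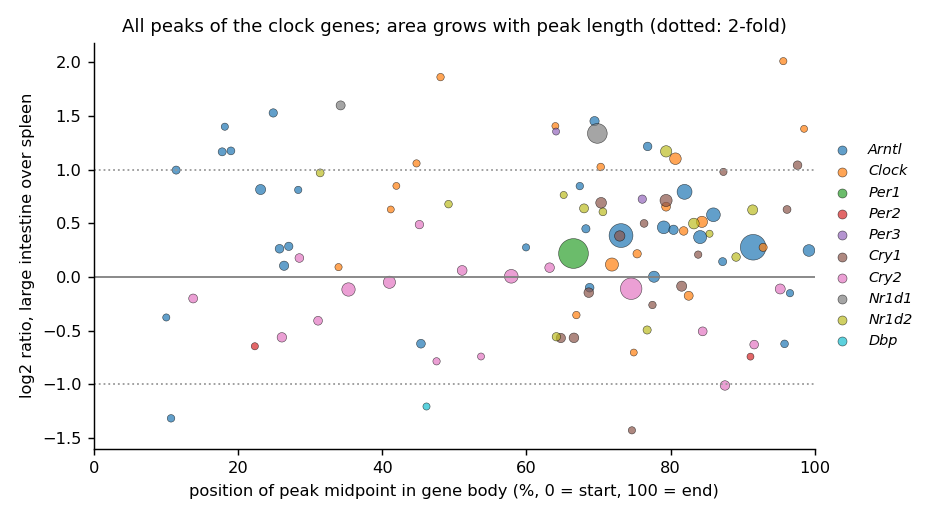
Log2 ratio of LI over spleen for each of the 101 peaks (points, area growing with peak length, colour by gene) against the position of the peak midpoint in the gene body, from the start (0%) to the end (100%). Most points lie past the middle of the bodies and above 0, the large points stay within 2-fold except in Nr1d1, Clock and Nr1d2, and the extreme ratios are mostly of short peaks.

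Taken peak by peak, 69 of the 101 peaks (68.3%) were higher in LI, against 48.9% of all peaks. By more than 2-fold, 18 peaks were higher in LI, against 9.0% of all peaks, and 4 were higher in spleen, against 9.65%. The counting interval lay above 0 at 16 peaks (6.22% of all peaks) and below 0 at 1, in Cry2 (5.99%). Of 21 peaks of 1 kb or longer, which carry most reads, 18 were higher in LI (51.1% of all peaks of that length), and 3, in Clock, Nr1d1 and Nr1d2, by more than 2-fold (1.78%). Peaks of 1 gene share their library and are not replicates, and Arntl alone supplied 31 of them. The peaks lay late in the genes: 70 of 101 midpoints (69.3%) were past the middle of the body, against 60.4% over all coding genes, and the median position was 69.8% of the body against 59.8%. Introns held 84 of the midpoints, coding exons 6, UTRs 5 and other exons 6.

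Among the repressors, the Period genes differed more in how much signal they carried than in any shared direction. Per1 (ENSMUSG00000020893.17, chr11:69095217-69109960, plus strand), which responds rapidly to hormonal and light cues, was covered over 69.1% of its body by a single peak of 10466 bp. Its mean signal was 49.2 RPKM in the spleen library and 59.4 RPKM in the LI library. Only 0.432% of all peaks were as long, and only 15 of the 28145 peaks of 1 kb or longer had a higher mean signal. The ratio was 0.22 (interval 0.13 to 0.32), resting on about 1393 reads in spleen and 2162 reads in LI. The difference was gone after correction for base composition: the peak has a GC content of 56.2%, and the corrected ratio was -0.020 (interval -0.12 to 0.08). Upstream, Vamp2, the SNARE gene before Per1, had a ratio of 0.14 (interval -0.17 to 0.46).

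Per2 (ENSMUSG00000055866.9, chr1:91415982-91459324, minus strand), whose mutation shortens and weakens behavioural rhythms in mice, was nearly bare of called peaks. Signal outside called peaks is not among the deposited values. Its 2 intronic peaks covered 0.994% of the body. The peak nearer the start had 10.6 RPKM in spleen and 6.80 RPKM in LI, and the one nearer the end 12.7 and 7.65 RPKM. The ratio of the sums was -0.71 with an interval of -1.84 to 0.41, resting on about 13 reads in spleen and 11 in LI, so a difference was not detectable at this depth.

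Per3 (ENSMUSG00000028957.12, chr4:151003652-151044665, minus strand) lies wholly inside the much longer gene Camta1, a calmodulin-binding transcription activator on the same strand. Its 2 peaks cannot be assigned to either gene. They had 8.07 RPKM in spleen and 14.1 RPKM in LI at the 455-bp peak and 4.58 and 12.9 RPKM at the 208-bp peak. The ratio of 1.02 (interval 0.04 to 2.0) rested on about 13 reads in spleen and 32 in LI, and the GC-corrected interval, -0.10 to 1.89, held 0. Over its 36 peaks, Camta1 had 314 RPKM in spleen and 419 RPKM in LI, a ratio of 0.37 (interval 0.18 to 0.56). The ratios of Per2 and Per3 differed by -1.73 (Per2 minus Per3, interval -3.23 to -0.24), whereas the difference of Per1 from Per2, 0.94, and from Per3, -0.80, had intervals that held 0 (-0.19 to 2.07 and -1.78 to 0.19).

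The cryptochromes, which form the repressor complex with the PER proteins, differed in their ratios. Cry1 (ENSMUSG00000020038.10, chr10:85131700-85185064, minus strand), the stronger repressor of the pair, had 14 peaks, all of them between 64.8% and 97.6% of the body. They summed to 133 RPKM in spleen and 159 RPKM in LI, a ratio of 0.21 (interval -0.07 to 0.49), with 8 peaks higher in LI and 6 in spleen. Its peaks of 1 kb or longer alone gave 0.72 (interval 0.24 to 1.19): the libraries gave 6.72 RPKM (spleen) and 11.7 RPKM (LI) at a 1406-bp peak, and 8.92 and 15.2 RPKM at a 1018-bp peak. The shorter peaks, which included a 249-bp peak with 9.52 RPKM in spleen and 3.34 RPKM in LI, ran in both directions.

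Cry2 (ENSMUSG00000068742.11, chr2:92403646-92434043, minus strand) was the only member whose interval lay below 0. It had 17 peaks over 58.7% of its body, which summed to 238 RPKM in spleen and 210 RPKM in LI, a ratio of -0.23 (interval -0.42 to -0.04; rank 7360). The difference was small and spread over the gene, with 12 peaks higher in spleen and 5 in LI. At the longest peak, of 5259 bp, the libraries were close, with 21.4 RPKM in spleen and 20.5 RPKM in LI (-0.11), and the clearest difference was at a 711-bp peak with 11.96 and 5.88 RPKM (-1.01, interval -1.90 to -0.12). The call depends on the short peaks and on the columns being scaled. The interval held 0 with the strongest peak alone (-0.32 to 0.10), with peaks of 1 kb or longer (-0.26 to 0.12) and without scaling (-0.37 to 0.009). It stayed below 0 with the other scalings used (-0.42 to -0.04 and -0.43 to -0.05) and with length-weighted sums (-0.31 to -0.04). The GC-corrected ratio was -0.36 (interval -0.56 to -0.17). The difference between Cry1 and Cry2 was 0.44 (Cry1 minus Cry2, interval 0.10 to 0.77). Slc35c1, upstream of Cry2 on the same strand, was also higher in spleen (-0.41, interval -0.77 to -0.05), whereas Mapk8ip1, past its end, stood at 0.63 (interval -0.11 to 1.37).

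The largest difference of any clock gene was in Nr1d1 (ENSMUSG00000020889.11, chr11:98767932-98775333, minus strand), the gene of REV-ERBα, a heme-binding nuclear receptor that represses Arntl. Its peaks summed to 18.8 RPKM in the spleen library and 53.2 RPKM in the LI library, 2.70 times as high after scaling (log2 ratio 1.43, interval 1.09 to 1.78), and it ranked 123 of 9456 coding genes from the LI end. Both of its peaks contributed. The longer, of 4357 bp, had 13.9 RPKM in spleen and 37.0 RPKM in LI (1.34, interval 1.09 to 1.58), and the 607-bp peak in the first intron, whose centre is printed above, had 4.85 and 16.2 RPKM (1.60, interval 0.57 to 2.62). About 172 reads in spleen and 595 in LI stood behind the sum. The GC-corrected ratio was 1.24 (interval 0.89 to 1.59), and with a pseudocount of 5 RPKM the interval was 0.96 to 1.54, so that the lower bounds were then under 2-fold.

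Nr1d1 and Thra, the gene of the thyroid hormone receptor α, converge and overlap at their ends, and the signal carries no strand. The 4357-bp peak reached 1021 bp into Thra, while the 607-bp peak did not touch it. Thra itself had 12 peaks with 102 RPKM in spleen and 170.5 RPKM in LI, and all 12 were higher in LI (0.70, interval 0.37 to 1.03). The peaks just past the end of Nr1d1, which lie in Thra, ran from 0.39 to 1.06. When the 5 kb past the end were added to Nr1d1, the ratio was 0.85 (interval 0.50 to 1.20). The genes on both sides, Med24 (0.22, interval -0.03 to 0.47) and Msl1 (-0.21, interval -0.44 to 0.02), had intervals that held 0.

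Nr1d2 (ENSMUSG00000021775.11, chr14:18204054-18239127, minus strand), the gene of REV-ERBβ, was also higher in LI, but less so. Its 12 peaks summed to 90.9 RPKM in spleen and 134 RPKM in LI, a ratio of 0.51 (interval 0.18 to 0.84; rank 1040), and 10 of them were higher in LI. Its strongest difference was at a 1179-bp peak with 6.75 RPKM in spleen and 16.3 RPKM in LI (1.17, interval 0.51 to 1.83). The peaks of 1 kb or longer alone gave 0.86. The ratio of Nr1d1 exceeded that of Nr1d2 by 0.93 (interval 0.45 to 1.40). Rpl15, upstream of Nr1d2, stood at -0.09 (interval -0.59 to 0.41).

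**Figure D4:**
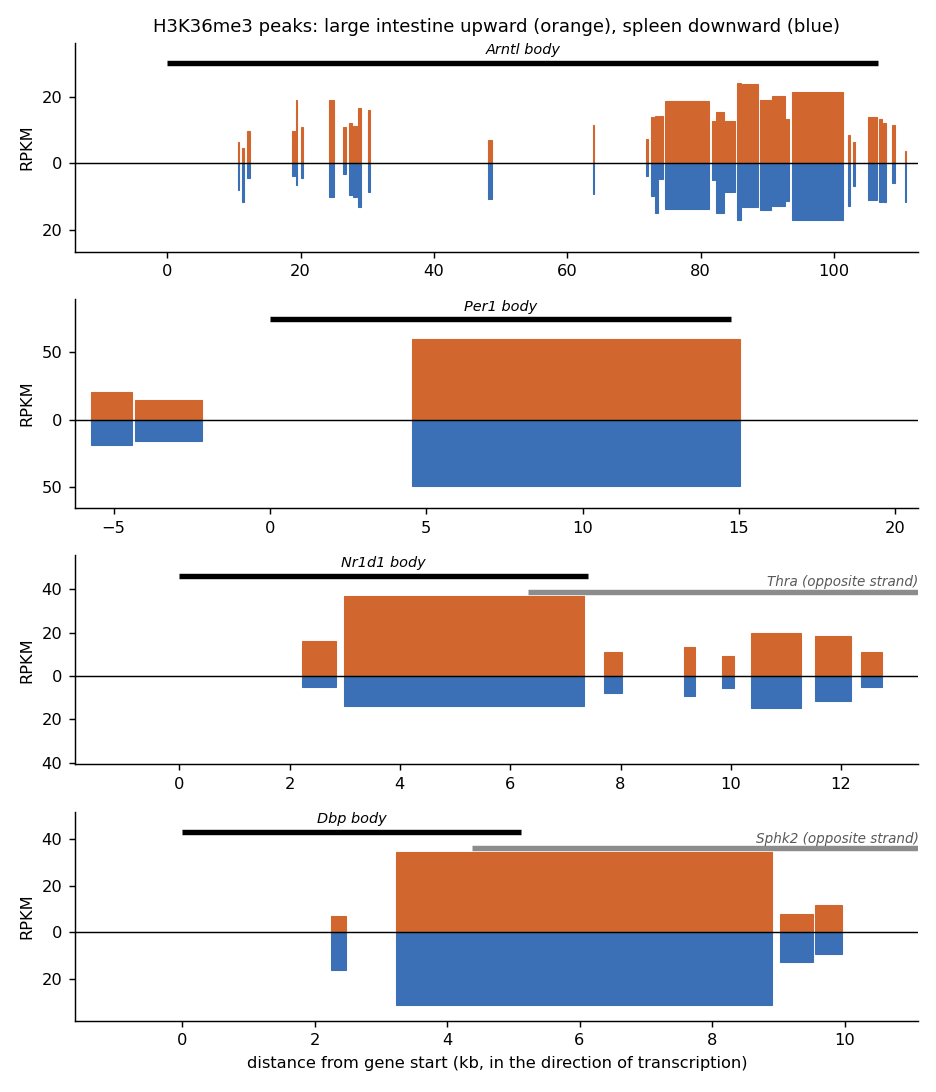
H3K36me3 peaks at Arntl, Per1, Nr1d1 and Dbp against the distance from the gene start in kb, in the direction of transcription; LI signal is drawn upward and spleen signal downward (RPKM as deposited), and bars on top show the gene body and, in grey, an overlapping gene on the opposite strand. At Nr1d1 the orange block reaches 37.0 RPKM against 13.9 RPKM below the line, whereas the long peak across the ends of Dbp and Sphk2 has 34.6 and 31.3 RPKM.

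Dbp (ENSMUSG00000059824.12, chr7:45705088-45710203, plus strand), an output gene that relays the rhythm to D-box promoters, is a case where the rule for assigning peaks decides the value. Its only peak by midpoint, the 228-bp peak printed above, had 16.4 RPKM in spleen and 7.08 RPKM in LI. This gave -1.20 (interval -2.61 to 0.21), from about 10.1 reads in spleen and 5.6 in LI with each read taken to cover 200 bp. A difference was not detectable under that cover. With reads taken as 75 bp, a setting chosen after seeing the data, the interval was -2.12 to -0.28 and did not hold 0. A peak of 5674 bp covered a further 36.8% of the Dbp body, but its midpoint lay 954 bp past the end, in Sphk2, a sphingosine kinase gene on the opposite strand. It carried 31.3 RPKM in spleen against 34.6 RPKM in LI (0.10), and the ratio of Dbp with both peaks was -0.24 (interval -0.62 to 0.15). Sphk2 had 53.5 RPKM in spleen and 54.2 RPKM in LI over its 3 peaks (-0.03, interval -0.33 to 0.28).

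The genes that flank the members gave a view of the same chromosome stretches. Of 20 nearest coding genes on either side, 13 had enough signal. Their median ratio was -0.08, with 5 higher in LI, against 50.7% of all coding genes. No interval lay above 0 (17.5% of all coding genes), and 2 lay below 0 (15.0%), those of Slc35c1 and Btbd11. Btbd11 stands 202 kb from Cry1 and had 51.0 RPKM in spleen and 23.2 RPKM in LI (-1.17, interval -1.91 to -0.43). Coding genes that overlap a member were not among these flanking genes. Of those, Thra (0.70, interval 0.37 to 1.03) and Camta1 (0.37, interval 0.18 to 0.56) had intervals above 0, and that of Sphk2 held 0. Next to Per2, Traf3ip1 stood at 0.01 (interval -0.41 to 0.43), and next to Per3, Vamp3 stood at -0.26 (interval -0.65 to 0.12).

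The wider clock machinery was read from a list of 34 genes that encode partners, kinases, ligases and co-repressors of the core loop. No peak was found in Arntl2, Rorb, Bhlhe41, Ciart, Fbxl21 and Usp2, and Hlf, which belongs with Dbp and Tef to the D-box activators, had a single peak with 12.9 RPKM over both libraries, under the minimum. The other 27 genes had a median ratio of 0.03, against 0.00 over all coding genes, with 14 higher in LI and 13 in spleen. The interval lay above 0 in 8 genes, against 17.5% of all coding genes, and below 0 in Timeless and Kdm5a, against 15.0%. More than 2-fold higher in LI were 4 genes, Npas2, Nfil3 and Rora among them, against 3.21%, and none was more than 2-fold higher in spleen, against 1.81%.

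These genes include an activator of Arntl and the D-box repressor. Rora, which activates Arntl at the sites that REV-ERBs occupy, had 331 RPKM in spleen and 767 RPKM in LI over 57 peaks (1.17, interval 1.03 to 1.30). Nfil3, the repressor of D-box genes and a regulator of lymphocytes, had 28.9 RPKM in spleen and 92.1 RPKM in LI over 7 peaks (1.61, interval 1.16 to 2.07). Npas2, which can replace CLOCK, had only 2 peaks with 8.16 RPKM in spleen and 29.3 RPKM in LI (1.74, interval 0.49 to 2.99).

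The genes of the list with the highest summed signal apart from Rora were close to even. Ncor1, the co-repressor recruited by REV-ERBs, had 899 RPKM in spleen and 889 RPKM in LI over 87 peaks (-0.06, interval -0.17 to 0.05). Kdm5a, a histone demethylase that acts with the CLOCK pair, had 498 and 462 RPKM (-0.15, interval -0.28 to -0.02). Gsk3b, a kinase of PER and REV-ERB proteins, had 354 and 336 RPKM (-0.12, interval -0.31 to 0.07), and Fbxw11, a ligase subunit that targets PER, had 243 and 265 RPKM (0.08, interval -0.13 to 0.29). Timeless, a replication fork protein in mammals, was the list's lowest, with 219.8 RPKM in spleen and 157 RPKM in LI (-0.53, interval -0.76 to -0.31); it is named for its interval, after its values were seen.

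**Figure D5:**
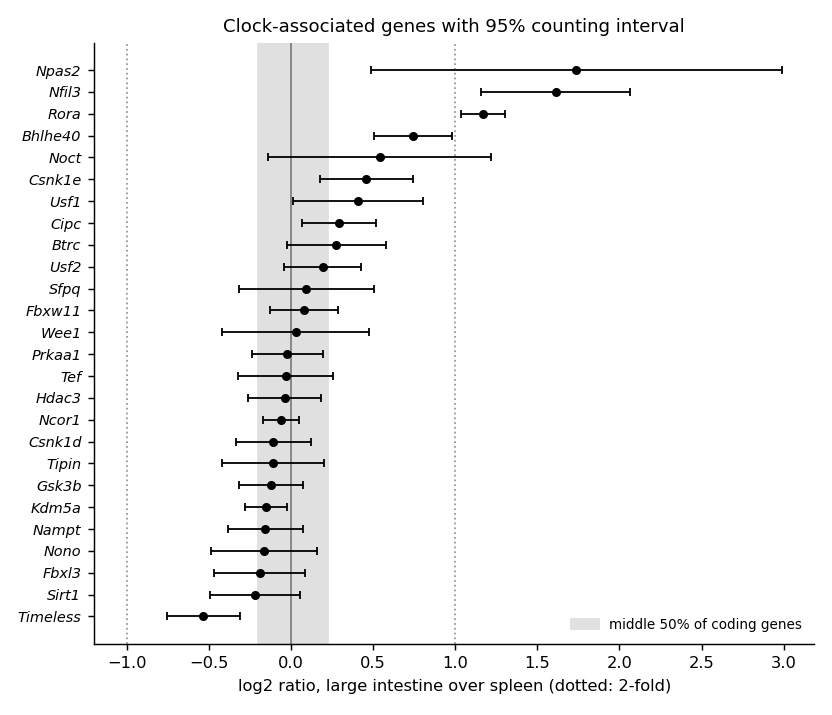
Log2 ratio of LI over spleen for clock-associated genes with enough signal (points), with the approximate 95% counting interval (bars) and sorted by ratio; the grey band is the quartile range of all coding genes and dotted lines mark 2-fold. Npas2, Nfil3 and Rora lie beyond 2-fold on the LI side, and most other genes lie within the grey band.

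In lists of Treg signature genes that the study took from expression data of other samples, Per1, Nr1d1 and Nr1d2 were among the colonic genes and Dbp was among the splenic genes. Of these, Per1, Nr1d1 and Nr1d2 had intervals above 0, and the interval of Dbp held 0. After GC correction the ratio of Per1 was near 0 and its interval held 0, while the intervals of Nr1d1 and Nr1d2 stayed above it.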

How the data were processed

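H3K36me3 was measured by ChIP-seq in splenic and intestinal Treg cells, with single-end reads of 75 nt and 1 library per tissue. The authors aligned the reads to mm10, called peaks with MACS2 against input chromatin, merged the peaks of both tissues with bedtools and computed the mean RPKM coverage of each merged peak; FastQC and Bowtie2 are also named in the submitters' processing notes. The deposited table is called raw counts but holds RPKM values that are not whole numbers, with 2 columns, so no count test was run. No spike-in is named in the sources used here, so a genome-wide change of the mark would not be seen.

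Peaks were assigned by midpoint to GENCODE M21 bodies and summed per gene, and columns were scaled to their totals over all peaks (1.03-fold apart). With 1 library per tissue no test was made. Ratios and counting intervals were computed with Python 3.11.15, pandas 2.3.3 and numpy 2.4.6. The interval was tried on simulated reads drawn with the same read cover and independence that it assumes. That simulation could not test these assumptions or the spread between libraries. Genes needed 20 RPKM over both libraries. Depth was inferred from the value of 1 read, 1.69 RPKM in spleen and 1.31 RPKM in LI for the bins of 20 bp. The members and lists were chosen with earlier results of these data known. Named were all members, the list's genes past 2-fold and the 5 with the highest summed signal. Also named were neighbours that share a peak with a member or differ from it in direction. The remaining neighbours and Timeless were added after their values were seen. A gene of the clock-associated list and a B cell marker enter the counts but are not reported here by name. Alternatives were other scalings, sums, assignments and pseudocounts, a GC correction and, added after seeing the data, members with at least 1 kb of peaks and reads taken as 75 bp.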

Additional observations from a re-analysis of the deposited data

How the results depend on the processing

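No paired analysis was possible because each tissue had 1 library, and for the same reason no replicate could be left out. Of the values of single members under the alternatives, 112 stayed within their counting interval, 3 moved and 1 reversed: Per1 was -0.020 after GC correction, Nr1d1 0.85 with the 5 kb past its end, and Cry1 0.72 and Nr1d2 0.86 with peaks of 1 kb or longer. Many of the 112 could not move, because a change of read cover alters the interval alone and some settings left a gene's peaks the same. A wide interval also holds large shifts: Dbp was -1.20 in the main setting and -0.23 with the 5 kb past its end. With the strongest peak alone, which leaves fewer reads, the intervals of Arntl, Clock, Per3, Cry2 and Nr1d2 held 0; those of Per3 also with length-weighted sums and of Cry2 with peaks of 1 kb or longer and without scaling. The members' median stayed between 0.22 and 0.54. The number of members more than 2-fold higher in LI was 1 in place of 2 with length-weighted sums, the strongest peak alone, the 5 kb past the end, peaks in no other coding gene, peaks of 1 kb or longer, GC correction, a pseudocount of 5 and members with at least 1 kb of peaks; the gene lost was Nr1d1 with the 5 kb past the end and Per3 otherwise. The number more than 2-fold higher in spleen was 0 in place of 1 with any overlap, the 5 kb past the end, peaks of 1 kb or longer, a pseudocount of 5 and members with at least 1 kb of peaks, where Dbp was the gene lost, and 2 with GC correction, where Per2 joined Dbp. The clock-associated genes more than 2-fold higher in LI were 2 in place of 4 with the strongest peak alone and with peaks of 1 kb or longer. With peaks of 1 kb or longer, 18 member peaks were higher in LI and 3 in spleen. Coding genes past 2-fold were 468 in LI and 307 in spleen without the filter, and 68 and 37 with at least 200 RPKM, against 304 and 171. With reads taken as 75 bp the intervals narrowed, and those of Cry1 (0.03 to 0.39) and Dbp (-2.12 to -0.28) no longer held 0; this setting and that of members with 1 kb of peaks were chosen after seeing the data.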
